A study of Mus musculus with 6 samples.

Results

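The 3 genes of the polypyrimidine tract binding protein family, Ptbp1, Ptbp2 and Ptbp3, encode RNA-binding proteins that regulate splicing, and their own transcripts were examined as targets of FLAG-tagged PTBP1 and of PTBP2 in mouse cortex. The loci were fixed windows of the mm9 genome: Ptbp1 on the plus strand of chr10:79310000-79330000, Ptbp2 on the minus strand of chr3:119400000-119500000 and Ptbp3 on the minus strand of chr4:59480000-59570000. A member is a distinct interval, meaning 1 combination of chromosome, strand, start and end in a library's deposited list, with its midpoint in a locus. The loci held 1015 such intervals of 962410 in the 6 lists together, or 1000 when an interval found in several libraries was counted once. Of the 1015, 1000 lay in Ptbp2, 6 in Ptbp1 and 9 in Ptbp3. Intervals were placed by mm9 position alone and none was assigned to an exon, an intron or an untranslated region.

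The libraries are from crosslinking and immunoprecipitation with sequencing (CLIP-seq), in which ultraviolet light joins a protein to the RNA it touches and the bound RNA is sequenced. All came from nuclear fractions of cerebral cortex of BL6/129Sv mice on postnatal day 1. Anti-FLAG antibody was used on wild-type cortex (2 libraries), on Rosa-PTBP1; Emx1-cre cortex (1 library, FLAG Rosa-PTBP1) and on Rosa-PTBP1; PTBP2 loxp/loxp; Emx1-Cre cortex (1 library, FLAG loxP). A PTBP2 polyclonal antibody was used on wild-type cortex (1 library) and on Rosa-PTBP1; Emx1-cre cortex (1 library). The Rosa-PTBP1 transgene encodes PTBP1 with a FLAG tag. The Emx1-cre recombinase is active in dorsal forebrain progenitors and their progeny, so other cells of the cortex, such as interneurons, lie outside its lineage. Wild-type cortex carries neither the transgene nor the recombinase, and its FLAG libraries measure background. The PTBP2 loxP alleles sit in one of the genes examined, and the labels do not say which exon they flank. The labels do not say whether the wild-type replicates came from separate animals, and every other group had 1 library, so no test between groups was made and the 95% intervals below cover counting error only.

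PTB proteins bind pyrimidine-rich RNA and repress many exons, among them exons of their own family. In Ptbp1 and Ptbp2, PTBP1 is known to cause skipping of a short internal exon, and the resulting frameshift sends the transcript to nonsense-mediated decay, the pathway that destroys messages with an early stop codon. By this route PTBP1 limits its own level and keeps PTBP2 low in non-neuronal cells, and PTBP2 rises when PTBP1 is lost in developing neurons. PTBP3, also called ROD1, is the third paralog and is best known from blood cells.

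The short exon is shown because the known regulation described above acts on it in Ptbp1 and Ptbp2. The matching exon of Ptbp3 is set beside it for comparison of sequence. The sequences were read from GENCODE M21 transcripts of the GRCm38 build, 5′ to 3′, with capitals at the 19 of 34 positions where all 3 genes carry the same base. No interval was set against these exons, since the lists are in mm9.
Ptbp1: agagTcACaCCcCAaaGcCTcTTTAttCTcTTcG
Ptbp2: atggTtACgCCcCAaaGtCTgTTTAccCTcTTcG
Ptbp3: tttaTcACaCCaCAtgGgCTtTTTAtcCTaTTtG

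Ptbp1 and Ptbp2 shared 26 of the 34 bases, Ptbp1 and Ptbp3 22, and Ptbp2 and Ptbp3 21. Pyrimidines made up 22, 22 and 23 of the bases in Ptbp1, Ptbp2 and Ptbp3, and in each gene an exon of 93 bases follows. In the annotation, 4 of 16 Ptbp1 transcripts and 3 of 13 Ptbp2 transcripts contain the exon, and 2 transcripts of each gene join its neighbours directly. All 4 of these skipping transcripts are annotated as subject to nonsense-mediated decay. For Ptbp3, 9 of 13 transcripts contain the exon and 0 skip it.

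The libraries differed in depth and in make-up. They held 26665 to 351602 distinct intervals, each with 1 read name. FLAG Rosa-PTBP1, FLAG loxP and wild-type FLAG replicate 2 came from sequencing run WA047, and their track lines describe significant reads. Wild-type FLAG replicate 1 and both PTBP2 libraries came from runs XA041 and XB028, and their track lines describe combined data. Antibody, run and track line therefore cannot be told apart when FLAG-PTBP1 is set against PTBP2. Whether the lists were made differently is not stated. Sites, built by merging intervals of 1 library and strand that overlap or touch, consisted of a single interval in 85.8% of cases in wild-type FLAG replicate 1 and in 15.1% in FLAG Rosa-PTBP1. Chromosome 10, with Ptbp1, was nearly empty in FLAG Rosa-PTBP1 (0.151% of its intervals, against a median of 6.36% in the other libraries). Chromosome 4, with Ptbp3, was thin in PTBP2 Rosa-PTBP1 (2.07% against 6.02%). Chromosome 3, with Ptbp2, was filled in all 6 libraries.

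Ptbp2, the neuronal family member, was crosslinked densely to FLAG-PTBP1. FLAG Rosa-PTBP1 listed 534 intervals in Ptbp2, or 15.2 per 10000 of its intervals (95% interval 13.9 to 16.5). FLAG loxP listed 384, or 14.4 per 10000 (13.0 to 16). The wild-type FLAG replicates 1 and 2 listed 30 and 7, or 3.40 (2.29 to 4.85) and 2.63 (1.06 to 5.41) per 10000. Both FLAG-PTBP1 libraries thus lay above both background libraries, with intervals that did not overlap. PTBP2 wild type listed 21 intervals in Ptbp2, or 1.35 per 10000 (0.836 to 2.06). PTBP2 Rosa-PTBP1 listed 24, or 3.23 per 10000 (2.07 to 4.80). In order of share, the 2 FLAG-PTBP1 libraries came first and were within counting error of each other. Wild-type FLAG replicate 1, PTBP2 Rosa-PTBP1 and wild-type FLAG replicate 2 followed, also within counting error of each other. PTBP2 wild type came last, and its interval overlapped that of replicate 2 but not that of replicate 1.

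**Figure D1:**
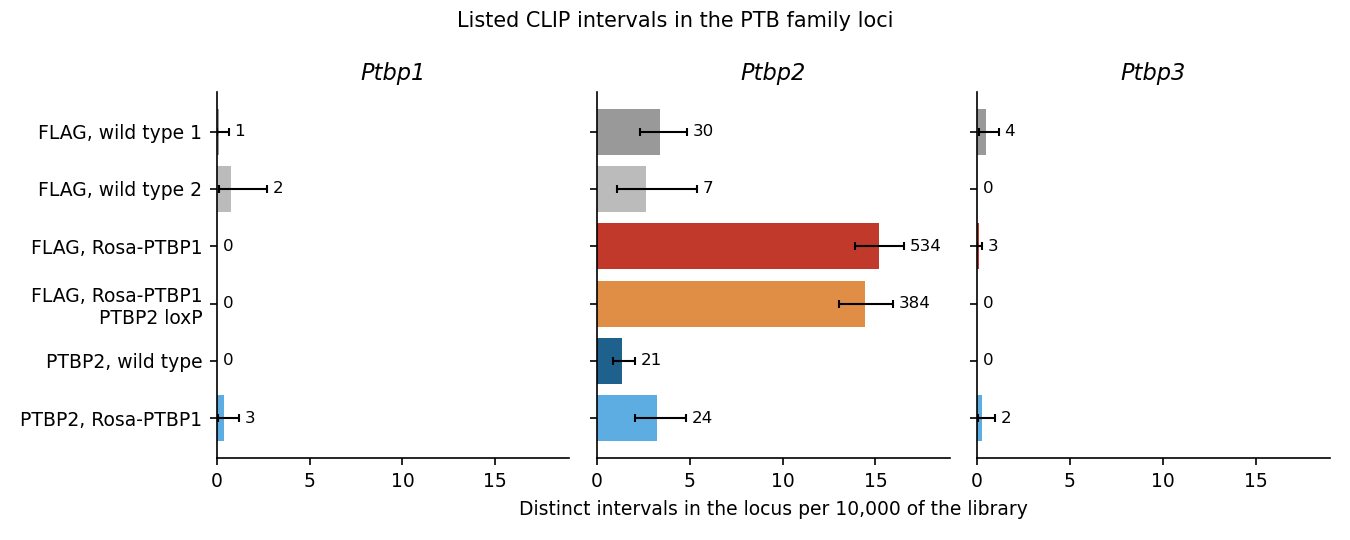
Distinct intervals in each PTB family locus per 10,000 distinct intervals of the library; bars are single libraries, error bars are exact 95% binomial intervals for counting error, and the figure beside each bar is the number of intervals. Only the 2 FLAG-PTBP1 libraries rise above 14 per 10,000, in Ptbp2; Ptbp1 and Ptbp3 hold at most 4 intervals in any library.

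Ptbp1 and Ptbp3 were almost free of listed intervals. Ptbp1, the founding member and the protein under study, had 3 intervals in PTBP2 Rosa-PTBP1, 2 in wild-type FLAG replicate 2, 1 in wild-type FLAG replicate 1 and none listed in FLAG Rosa-PTBP1, FLAG loxP or PTBP2 wild type. The 3 intervals of PTBP2 Rosa-PTBP1 formed 1 site at chr10:79319946-79320015, apart from the background sites at chr10:79324448-79324474 and chr10:79326343-79326392. With so few intervals, no library stood above the background at Ptbp1. The 0 of FLAG Rosa-PTBP1 cannot be read as absence of binding, because within 1 Mb on either side of Ptbp1 that library listed 8 intervals in all. FLAG loxP listed 46 there, so its chromosome 10 was not empty, and it listed 0 in the gene. Those 46 lay on both strands of a 2-Mb span, so a 0 in 20 kb of 1 strand says little.

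Ptbp3 had 4 intervals in wild-type FLAG replicate 1, 3 in FLAG Rosa-PTBP1, 2 in PTBP2 Rosa-PTBP1 and none listed in the other libraries. The 3 of FLAG Rosa-PTBP1 overlapped in 1 site at chr4:59526259-59526312, and the 4 of the background library lay in 4 separate places. Per kilobase of locus, FLAG Rosa-PTBP1 listed 5.34 intervals in Ptbp2 and 0.0333 in Ptbp3. A gene listed at 0 may still have held reads, because the lists keep significant clusters only, and neither the level nor the mappability of the transcripts was measured here. No comparison reached the minimum of 20 intervals in Ptbp1 or Ptbp3, so ratios are given for Ptbp2 alone.

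The intervals at Ptbp2 lay on its own strand, with none listed just outside the window. No library listed an interval on the opposite strand of the Ptbp2 window, and none listed one on either strand in the 100 kb before or after it. Within 1 Mb on either side of the centre, FLAG Rosa-PTBP1 listed 2 intervals outside Ptbp2 and FLAG loxP 6. The wild-type FLAG replicates listed 19 and 3. Among stranded 100-kb windows with any interval, Ptbp2 ranked 127th of 6710 by FLAG Rosa-PTBP1 intervals and 147th of 6879 by FLAG loxP intervals. It ranked 349 of 12291 and 469 of 5996 in the wild-type FLAG replicates, 466 of 7690 in PTBP2 Rosa-PTBP1 and 1139 of 8018 in PTBP2 wild type. Ptbp2 was thus among the 2.14% of windows richest in FLAG-PTBP1 intervals in both libraries, and among the 2.84% richest in replicate 1. By number of sites the order differed: Ptbp2 lay in the top 4.41% of windows in FLAG Rosa-PTBP1 and 6.05% in FLAG loxP, but in the top 2.61% and 2.17% in wild-type FLAG replicates 1 and 2.

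Against the summed wild-type FLAG libraries (37 of their 114992 intervals in Ptbp2), the Ptbp2 share was 4.72-fold higher in FLAG Rosa-PTBP1 (3.38 to 6.78) and 4.49-fold higher in FLAG loxP (3.20 to 6.47). A share at least 2-fold higher was found for 21.9% of 3097 stranded 100-kb windows in the first comparison and for 23.5% of 2779 in the second, so Ptbp2 was 1 of many windows past this fold. Within run WA047, against replicate 2 alone, the ratios were 5.79 (2.79 to 14.5) and 5.50 (2.64 to 13.8), and most windows passed 2-fold as well (60.9% and 64.4%). By number of sites the ratios to the summed wild-type FLAG libraries were smaller, at 2.00 and 1.48. Wild-type FLAG replicate 1 spread its 30 intervals over 25 sites, 20 of them of a single interval, whereas FLAG Rosa-PTBP1 placed 534 in 30 sites and FLAG loxP 384 in 18. Stacked sites, with 5 or more intervals, numbered 25 in FLAG Rosa-PTBP1, 13 in FLAG loxP and 0 in either wild-type FLAG library. Over all sites, single-interval sites made up 85.8% and 41.8% in wild-type FLAG replicates 1 and 2. In FLAG Rosa-PTBP1 and FLAG loxP they made up 15.1% and 16.9%. The lists thus differed in this way throughout. The share of stacked sites over all sites was not computed, so these counts cannot be read as particular to Ptbp2.

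The next comparison asked whether FLAG-PTBP1 in Ptbp2 differed when the PTBP2 alleles were floxed. The share in FLAG loxP was 0.951 of that in FLAG Rosa-PTBP1 (0.832 to 1.09), a ratio that did not pass 2-fold and whose interval includes 1. Of 2675 windows, 38.5% passed 2-fold in either direction in this comparison. By counting error alone, the loxP library could lie up to 1.20-fold below or 1.09-fold above the other. Both libraries came from WA047, and there was 1 on each side. How much Ptbp2 RNA remained was not measured here.

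The PTBP2 antibody gave a different picture at its own transcript. The Ptbp2 share in PTBP2 wild type was 2.38-fold lower than in the summed wild-type FLAG libraries (1.36 to 4.28), and 35.7% of 2525 windows were at least 2-fold lower. Without replicate 1 the ratio of PTBP2 wild type to background was 0.515, which no longer passes 2-fold. Within run XA041 the ratio was 0.445 (0.164 to 1.04, from 7 and 28 intervals), and its interval includes 1. PTBP2 Rosa-PTBP1 differed from the same background by a ratio of 1.00 (0.574 to 1.72), where 61.2% of 2109 windows passed 2-fold in either direction. By summed intervals, neither PTBP2 library thus stood above background at Ptbp2.

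Between the PTBP2 libraries, the share was 2.39-fold higher in Rosa-PTBP1 than in wild-type cortex (1.27 to 4.51), and 21.8% of 1616 windows were at least 2-fold higher. With only chromosomes that every library filled, the ratio was 1.71, and within runs it was 2.52 in XA041 (0.994 to 7.20) and 1.87 in XB028 (0.638 to 4.94), so the call rests on which intervals are counted. By number of sites it was 4.04. FLAG Rosa-PTBP1 exceeded PTBP2 Rosa-PTBP1 by 4.71-fold at Ptbp2 (3.13 to 7.42), where 43.3% of 2355 windows were at least 2-fold higher. By number of sites that ratio was 1.58. FLAG loxP exceeded PTBP2 wild type by 10.7-fold (6.89 to 17.5), or 4.72-fold by number of sites, where 22.8% of 2195 windows were at least 2-fold higher. The comparisons share libraries. Both PTBP2 libraries came from the same runs, whereas FLAG-PTBP1 and PTBP2 libraries did not share one.

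**Figure D2:**
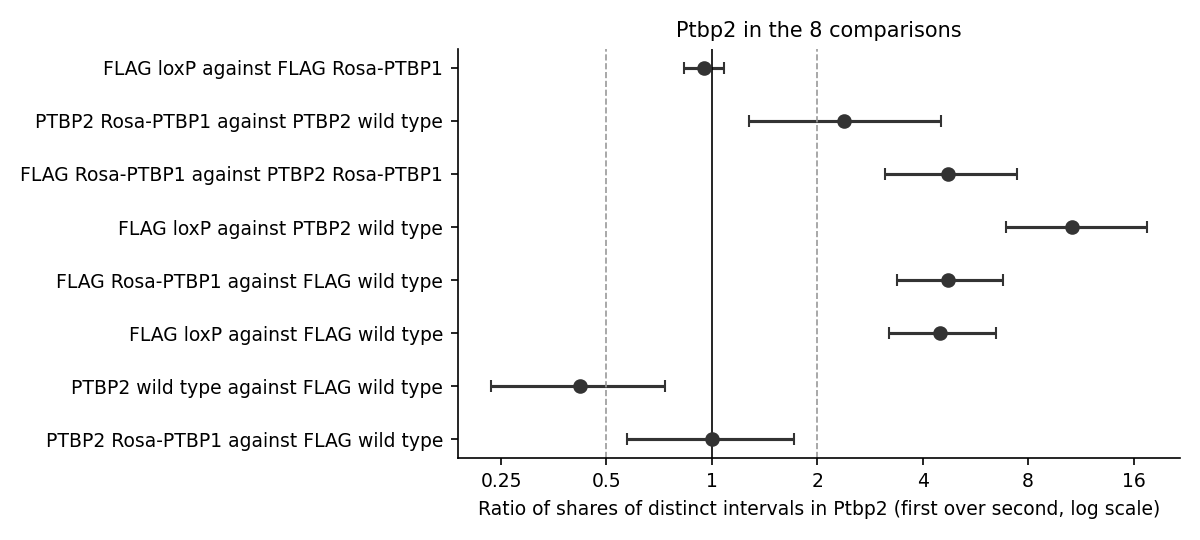
Ratio of the shares of distinct intervals in Ptbp2 for the 8 comparisons, on a log axis, with exact conditional 95% intervals for counting error; dashed lines mark 2-fold. FLAG-PTBP1 exceeds background and PTBP2 in all 4 such comparisons, the 2 FLAG-PTBP1 libraries sit at 0.951, and PTBP2 lies at or below background.

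Within Ptbp2 the FLAG-PTBP1 intervals were concentrated in 2 stretches. The stretches were formed, after the data were seen, from FLAG-PTBP1 intervals within 1000 bases of each other. The main 5′ stretch, chr3:119446034-119449600, held 346 of the FLAG Rosa-PTBP1 intervals (64.8%) and 258 of the FLAG loxP intervals (67.2%). The main 3′ stretch, chr3:119435905-119437823, held 138 (25.8%) and 109 (28.4%). Together they cover 5486 bases, or 5.49% of the window, and held 90.6% (87.8 to 93) of the FLAG Rosa-PTBP1 intervals and 95.6% (93 to 97.4) of the FLAG loxP intervals. Of the background intervals, 3 of 30 in replicate 1 and 0 of 7 in replicate 2 lay in them. PTBP2 wild type had 14 of its 21 there (66.7%, 43.0 to 85.4) and PTBP2 Rosa-PTBP1 4 of its 24 (16.7%, 4.74 to 37.4). Because the stretches were drawn around the FLAG-PTBP1 intervals, their high shares in those libraries follow from the choice, and the counts of the other libraries are the ones independent of it.

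**Figure D3:**
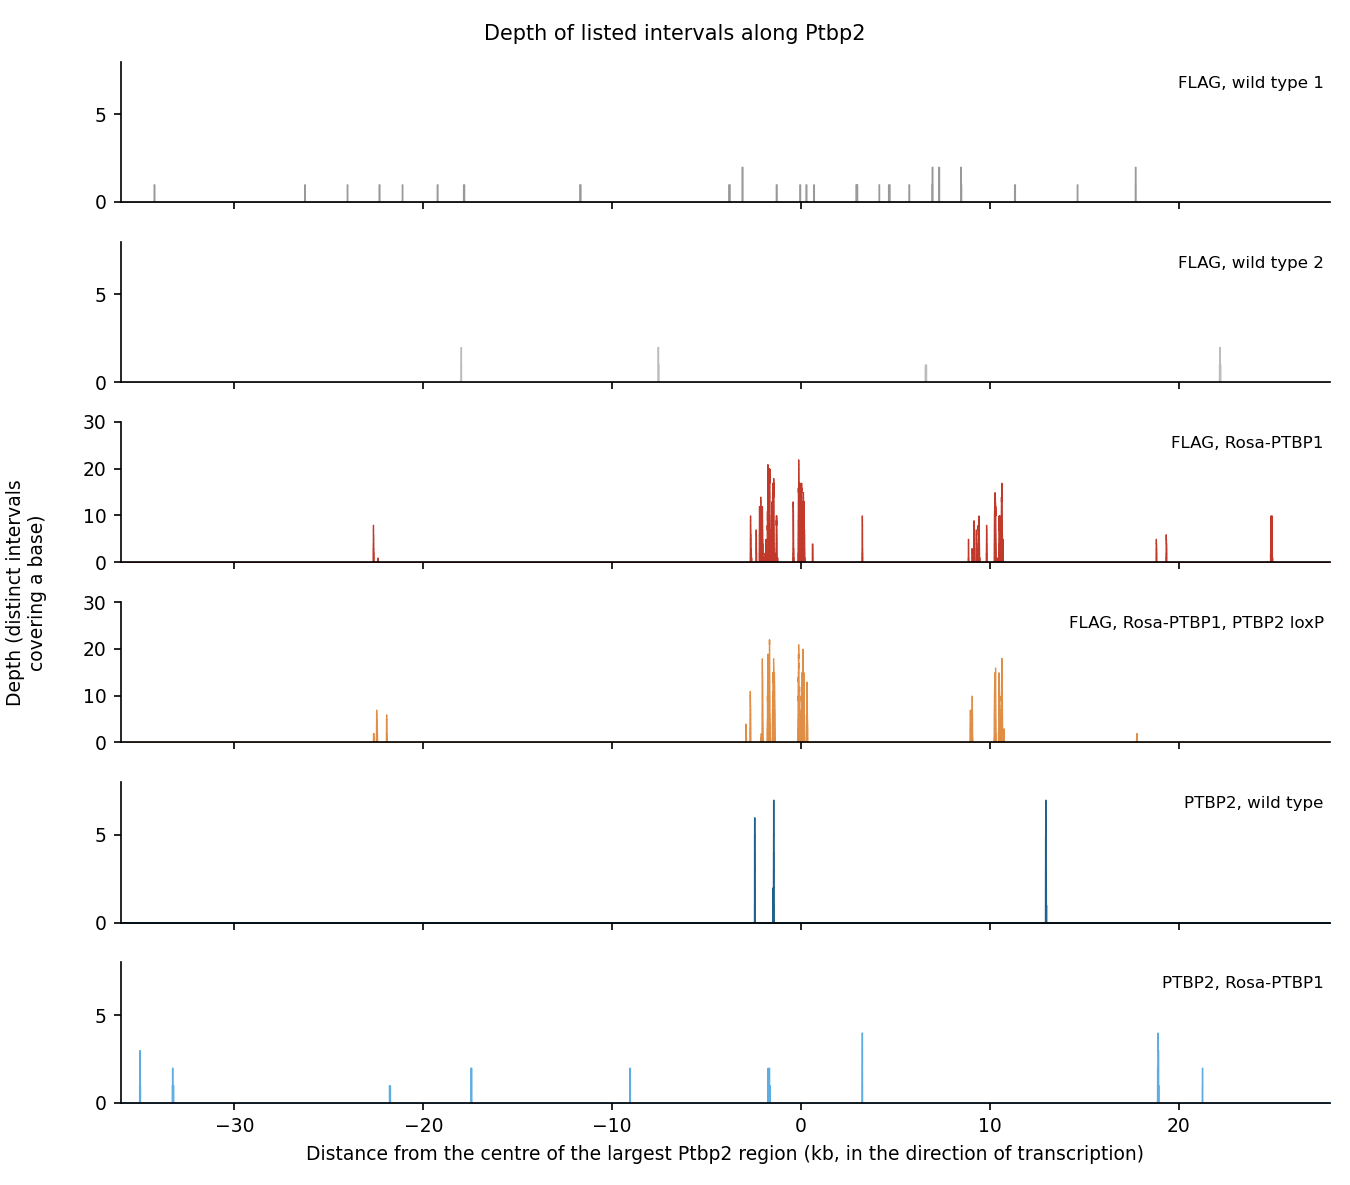
Depth of distinct intervals along Ptbp2 in each library, with distance in kb from the centre of the largest region in the direction of transcription; the FLAG-PTBP1 panels have a scale to 30 and the others to 8. FLAG Rosa-PTBP1 and FLAG loxP reach a depth of 22 in the same stretches, wild-type FLAG libraries never exceed 2, and PTBP2 wild type reaches 7.

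Intervals of all libraries were merged into 68 regions in Ptbp2, of which 29 held 5 or more intervals of 1 library and 12 held intervals of more than 1 library. The largest region, chr3:119446449-119446849, held 119 intervals in FLAG Rosa-PTBP1 and 105 in FLAG loxP. It held 1 in wild-type FLAG replicate 1 and none listed in the remaining libraries. Depth peaked at 22 on bases 119446794 to 119446796 in FLAG Rosa-PTBP1 and at 21 on base 119446796 in FLAG loxP, so the libraries placed their summit on the same base.

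Upstream in the same stretch lay a pair of adjoining regions. The region chr3:119448288-119448478 held 68 and 54 intervals in FLAG Rosa-PTBP1 and FLAG loxP, with depths of up to 21 and 22 and summits 81 bases apart. It also held 4 intervals of PTBP2 Rosa-PTBP1. The region chr3:119448012-119448236 held 61 and 51, with a depth of 18 in both. It was the region where PTBP2 wild type joined FLAG-PTBP1, with 8 intervals and a depth of 7 on bases 119448102 to 119448125. FLAG Rosa-PTBP1 peaked on bases 119448114 to 119448118 and FLAG loxP on bases 119448124 to 119448125, both inside the PTBP2 plateau. Neither wild-type FLAG library listed an interval in either region.

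Smaller regions lay at the 5′ side of this stretch. The region chr3:119448658-119448818 held 33 intervals in FLAG Rosa-PTBP1 and 20 in FLAG loxP, with summits 77 bases apart. The region chr3:119449274-119449381 held 10 and 11, with summits 2 bases apart. The PTBP2 wild-type site at chr3:119449095-119449138, with 6 intervals, lay 31 bases from the nearest FLAG-PTBP1 site.

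**Figure D4:**
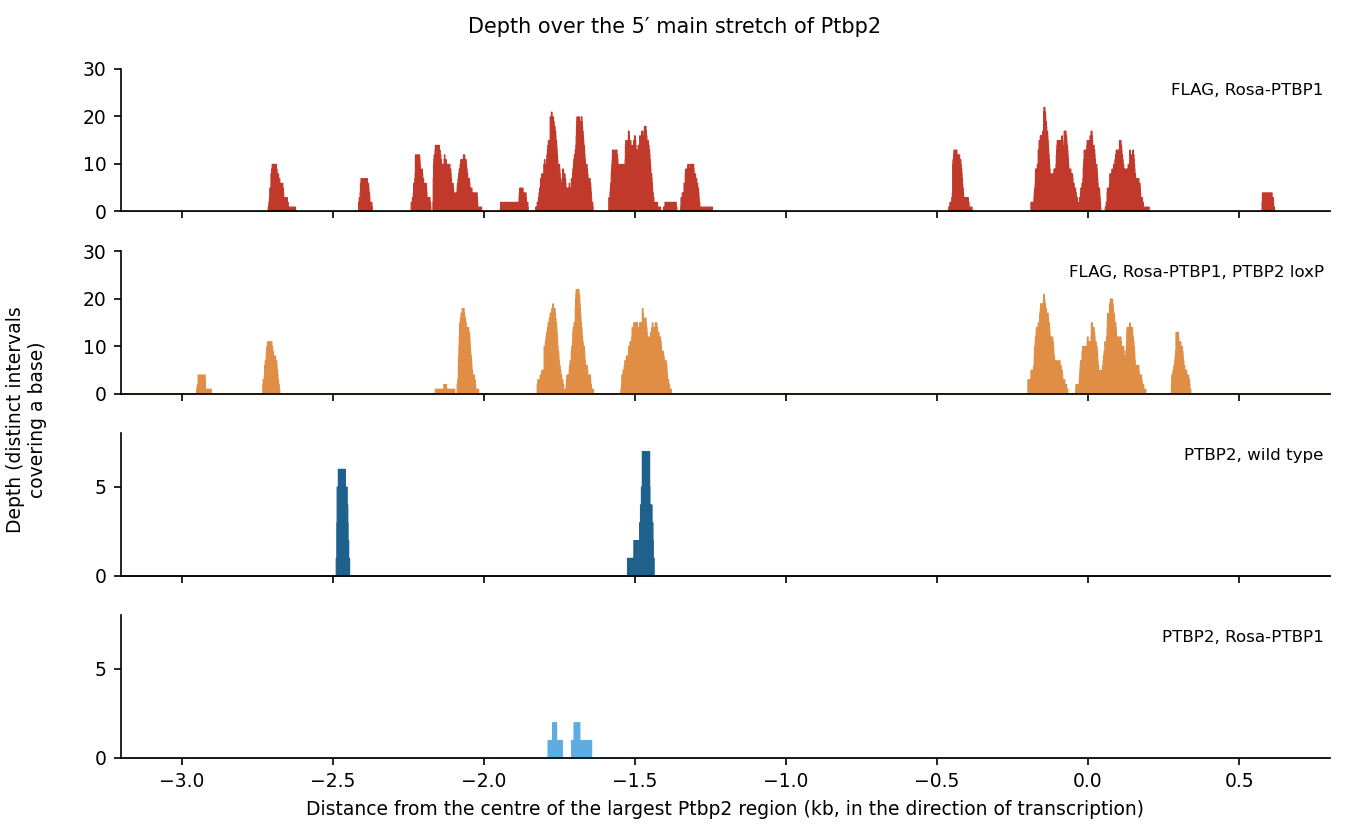
Depth of distinct intervals over the main 5′ stretch of Ptbp2 in the FLAG-PTBP1 libraries (scale to 30) and the PTBP2 libraries (scale to 8), with distance in kb from the centre of the largest region. The largest region peaks on the same base in both FLAG-PTBP1 libraries, while in the region upstream with 68 and 54 intervals the summits are 81 bases apart. Of the 2 PTBP2 wild-type peaks, the one with a depth of 7 lies in the adjoining region with 61 and 51 FLAG-PTBP1 intervals.

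In the main 3′ stretch, the region chr3:119435960-119436221 held 51 intervals in FLAG Rosa-PTBP1 and 57 in FLAG loxP, with overlapping summits at depths of 17 and 18. The region chr3:119436324-119436456 held 33 and 32, with depths of 15 and 16 and summits 25 bases apart. No wild-type FLAG or PTBP2 library listed an interval in either. In the 5′ part of this stretch each library had regions that the other lacked. The region chr3:119437185-119437303 held 21 FLAG Rosa-PTBP1 intervals and was listed at 0 in FLAG loxP. Outside the rule for named regions and chosen after their values were seen, chr3:119437666-119437725 held 7 FLAG loxP intervals and none of FLAG Rosa-PTBP1, and chr3:119437571-119437631 held 10 and 3.

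**Figure D5:**
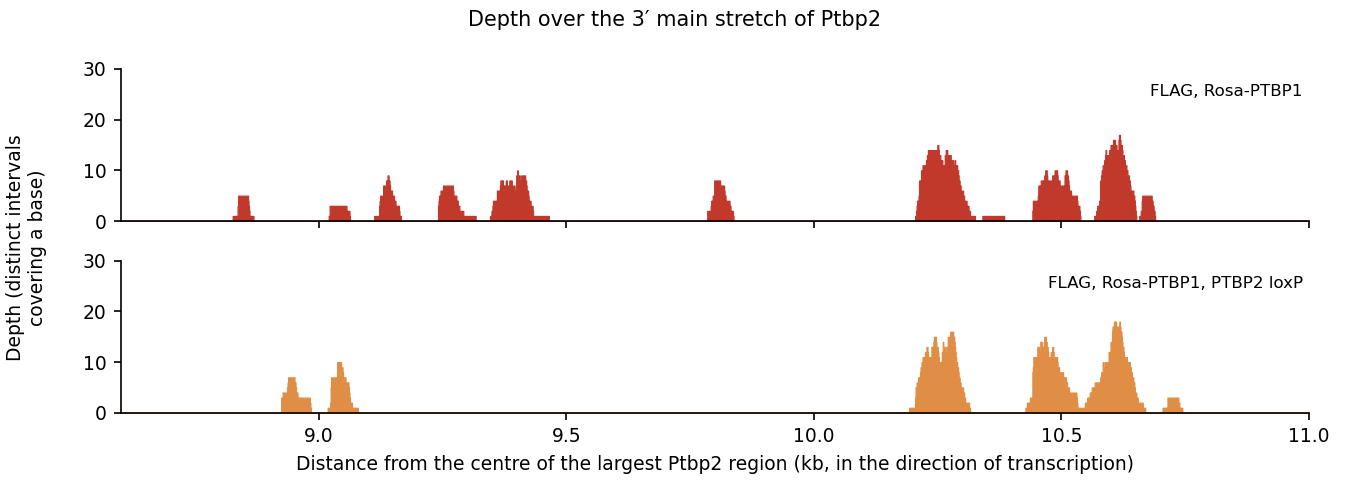
Depth of distinct intervals over the main 3′ stretch of Ptbp2 in the 2 FLAG-PTBP1 libraries, with distance in kb from the centre of the largest region. The right-hand peaks, with depths of 15 to 18, are present in both libraries, whereas several of the left-hand peaks, among them the region of 21 intervals, appear in FLAG Rosa-PTBP1 only.

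As a ratio of shares, FLAG loxP to FLAG Rosa-PTBP1 was 0.986 in the main 5′ stretch (0.836 to 1.16) and 1.04 in the main 3′ stretch (0.805 to 1.35). The 2 smaller stretches with intervals of both gave 2.20 (0.903 to 5.71, from 15 and 9 intervals) at chr3:119468580-119469331 and 0.240 (0.0259 to 1.10, from 2 and 11) at chr3:119427300-119428907. The other 2 of the 6 stretches held no FLAG loxP interval. Of the 8 named regions, 1 was listed at 0 in FLAG loxP, and in the others the ratio ran from 0.801 to 1.48. These regions were chosen for their many intervals, so the narrow range is only a description. Outside the main stretches FLAG loxP held 17 intervals and FLAG Rosa-PTBP1 50, a ratio of 0.449 (0.243 to 0.793). That split was made after the data were seen. Of 22 regions with 5 or more FLAG Rosa-PTBP1 intervals, 14 were listed at 0 in FLAG loxP, with 142 intervals in all. Over all chromosomes the share listed at 0 was 51.7% of 22695 such regions. Of 12 regions with 5 or more FLAG loxP intervals, 4 were listed at 0 in FLAG Rosa-PTBP1, and over all chromosomes 38.2% of 16180 were. Without chromosome 10, nearly empty in FLAG Rosa-PTBP1, this share was 33.7% of 15040. Zeros of this kind were thus common throughout the lists. The largest of the 14 was the region of 21 intervals above, and the next, named here outside the rule for regions, was chr3:119421689-119421813 with 20. The deposited lists keep significant clusters and FLAG loxP is the shallower library, and the part of either in these zeros was not tested.

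FLAG Rosa-PTBP1 had 30 sites in Ptbp2, and 13 of them (43.3%) overlapped a FLAG loxP site by 1 base or more, and 11 of 18 in FLAG loxP (61.1%) overlapped a FLAG Rosa-PTBP1 site. Over all sites of the libraries these shares were 36.1% of 43026 and 44.5% of 34912. Without chromosome 10 the second was 47.4% of 32718. Counted by intervals, 70.6% of FLAG Rosa-PTBP1 and 89.1% of FLAG loxP lay on a site of the other, where all intervals of the libraries gave 60.1% and 67.1%. Identical in both libraries were 13 intervals, 2.43% and 3.39% of their Ptbp2 intervals. The share of identical intervals over all chromosomes was not computed, so it is not known whether these shares are particular to Ptbp2. In 100-base bins with an interval of either library (45 bins), the numbers of intervals had a Pearson correlation of 0.76 and a Spearman correlation of 0.37. The bins share libraries, a run and neighbouring sequence, so these values only describe the profiles. FLAG Rosa-PTBP1 used 393 distinct 5′ ends for its 534 intervals, with at most 6 intervals at 1 end (base 119447098).

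PTBP2 intervals were also set against the FLAG-PTBP1 sites. In PTBP2 wild type 8 of 21 intervals (38.1%, 18.1 to 61.6) and in PTBP2 Rosa-PTBP1 8 of 24 (33.3%, 15.6 to 55.3) lay on a site of a FLAG-PTBP1 library, whereas wild-type FLAG had 3 of 30 (10%, 2.11 to 26.5) in replicate 1 and 0 of 7 in replicate 2. Within 100 bases of such a site the numbers were 14 of 21 (66.7%, 43.0 to 85.4) in PTBP2 wild type and 12 of 24 (50%, 29.1 to 70.9) in PTBP2 Rosa-PTBP1. Wild-type FLAG replicate 1 had 7 of 30 (23.3%, 9.93 to 42.3) and replicate 2 had 0 of 7. In PTBP2 wild type the 14 were the sites of 8 and 6 intervals, the same intervals as the 14 in the main stretches. The 2 measures are thus not separate observations, and their 95% intervals do not measure the spread between sites. Intervals of 1 site are not independent, and the 21 of PTBP2 wild type came from 3 sites. Over all intervals of the libraries, 72.2% of PTBP2 wild type and 57.0% of PTBP2 Rosa-PTBP1 lay on a FLAG-PTBP1 site, so both shares were lower within Ptbp2. In wild-type FLAG, 6.49% and 35.7% did in replicates 1 and 2. Within 100 bases of a FLAG-PTBP1 site lay 78.2% of all PTBP2 wild-type and 62.2% of all PTBP2 Rosa-PTBP1 intervals, again more than within Ptbp2. For wild-type FLAG replicates 1 and 2 these shares were 9.94% and 38.2%. PTBP2 wild type had 3 sites in Ptbp2, of 8, 7 and 6 intervals, all of them stacked. The site of 7, at chr3:119433659-119433730, lay 2175 bases from any FLAG-PTBP1 site and was shared with no other library. PTBP2 Rosa-PTBP1 had 10 sites of 1 to 4 intervals, and none overlapped a PTBP2 wild-type site. How often sites of these libraries overlap over all chromosomes was not computed, so this cannot be read as particular to Ptbp2. The 4 PTBP2 Rosa-PTBP1 intervals at chr3:119443412-119443449 fell in a region with 10 FLAG Rosa-PTBP1 intervals and 0 of FLAG loxP.

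The windows most like Ptbp2 were sought among 660 stranded 100-kb windows with 100 or more intervals, by the Euclidean distance between log2 shares over the 6 libraries. The nearest was the plus strand of chromosome 2 from 4.2 to 4.3 Mb, at a distance of 1.90. FLAG Rosa-PTBP1 listed 438 intervals there and FLAG loxP 169. PTBP2 wild type listed 56, PTBP2 Rosa-PTBP1 25, and wild-type FLAG 40 and 8 in replicates 1 and 2. The next were the minus strand of chromosome 18 from 43 to 43.1 Mb (1.98) and of chromosome 19 from 7.5 to 7.6 Mb (2.10). All 3 held a lower share of FLAG loxP relative to FLAG Rosa-PTBP1 or a higher share of PTBP2 wild type than Ptbp2 did.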

How the data were processed

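CLIP-seq reads of cortex were aligned to mm9 with Bowtie, per the submitters' processing notes (version not given in the sources used here). The authors deposited lists of reads in significant clusters in which start and end are positions. Neither the caller nor its false discovery rate or background is stated there. The deposited lists hold no score or count, and repeated lines at the same place were reduced to 1 distinct interval, so a share is intervals in a locus per 10000 of the library. Exact Clopper-Pearson 95% intervals and conditional binomial 95% intervals for ratios cover counting error only. A ratio of at least 2 was called, and the background is the percent of stranded 100-kb windows with at least 20 intervals in both libraries together that passed it. Regions named were the 8 with most intervals among those with 5 or more in 1 library. Python 3.11.15, pandas 2.3.3, numpy 2.4.6, scipy 1.17.1 and matplotlib 3.10.9 were used, and the counting was tested on simulated data. The loci, lists and comparisons were chosen with earlier results of these data known. Alternatives were other units (lines, merged sites, distinct 5′ ends), filled chromosomes (11 of 20), other thresholds, single runs and leaving out each wild-type FLAG replicate. Exon placement, motifs and the partner gene list were not analysed here, since no mm9 annotation was used.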

Additional observations from a re-analysis of the deposited data

How the results depend on the processing

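The lists keep significant clusters, mostly of 1 library per group, and the 21 and 24 Ptbp2 intervals of the PTBP2 libraries limit the ratios that use them. The 6 called ratios kept their direction under every alternative that recalculated them. Of the uncalled ratios, FLAG loxP against FLAG Rosa-PTBP1 moved to the other side of 1 under 1 of 7 alternatives (1.03 on filled chromosomes). PTBP2 Rosa-PTBP1 against FLAG wild type did so under 3 of 10, with a range of 0.780 to 1.27. No paired analysis was possible because only the wild-type FLAG group had more than 1 library. The alternatives counted here include a stricter fold rule and, where run, a higher minimum of intervals per window. Both reuse the main ratio, so neither could change its direction, and the higher minimum could not change its call. With these included, 61 Ptbp2 ratios under alternatives kept their call and 8 did not pass the rule applied. Among the 8, the unchanged 2.39 of PTBP2 Rosa-PTBP1 against PTBP2 wild type failed the stricter rule. So did the unchanged 0.420 of PTBP2 wild type against FLAG wild type. Both comparisons also failed the 2-fold rule under other alternatives. The first did so on filled chromosomes (1.71) and in run XB028 (1.87), and the second without replicate 1 (0.515).

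With only the filled chromosomes in the denominator, Ptbp2 shares per 10000 were 6.76 in wild-type FLAG replicate 1, 30.4 in FLAG Rosa-PTBP1, 31.4 in FLAG loxP and 2.79 in PTBP2 wild type. By merged sites they were 6.97 in FLAG Rosa-PTBP1 and 5.16 in FLAG loxP, and by distinct 5′ ends 13.1 and 12.1. Without single-interval sites, an alternative chosen after seeing the data, the share was 0 for Ptbp1 and Ptbp3 in wild-type FLAG replicate 1 and 0 for Ptbp3 in PTBP2 Rosa-PTBP1.

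PTBP2 Rosa-PTBP1 against PTBP2 wild type gave 1.71 on filled chromosomes and 1.87 in run XB028, and its 2.39 and the 0.420 of PTBP2 wild type against FLAG wild type did not pass a 3-fold rule. By merged sites, FLAG Rosa-PTBP1 against PTBP2 Rosa-PTBP1 gave 1.58, FLAG Rosa-PTBP1 against FLAG wild type 2.00 (just under 2 before rounding) and FLAG loxP against FLAG wild type 1.48. Leaving out each wild-type FLAG replicate gave 4.47 to 5.79 for FLAG Rosa-PTBP1, 4.25 to 5.50 for FLAG loxP, 0.398 to 0.515 for PTBP2 wild type (0.515 without replicate 1) and 0.95 to 1.23 for PTBP2 Rosa-PTBP1. The cause was not tested.

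Regions with 10 or more intervals numbered 15 against 29 with 5 or more. With overlap of at least 50% of each site, 23.3% of FLAG Rosa-PTBP1 sites in Ptbp2 lay on FLAG loxP sites. This share was not computed over all sites.

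The percent of windows called moved more. For FLAG loxP against FLAG Rosa-PTBP1 it was 17.9 by sites and 22.4 at 3-fold. For PTBP2 Rosa-PTBP1 against PTBP2 wild type it was 2.02 by sites, 10.9 at 3-fold and 13.0 with 50 or more intervals, a minimum Ptbp2 did not reach. For FLAG loxP against PTBP2 wild type it was 12.4 at 3-fold. For FLAG Rosa-PTBP1 against FLAG wild type it was 37.1 by sites, 9.52 by lines, 39.9 without single-interval sites, 13.7 at 3-fold, 41.8 with 50 or more, and 21.8 to 60.9 leaving out a replicate. For FLAG loxP against FLAG wild type it was 9.46 by lines, 42.7 without single-interval sites, 47.4 with 50 or more, and 23.9 to 64.4 leaving out a replicate. For PTBP2 wild type against FLAG wild type it was 19.7 by sites, 59.8 by lines, 18.0 without single-interval sites, 8.52 with 50 or more, and 12.1 to 31.7 leaving out a replicate. In these FLAG wild-type comparisons 60.9, 64.4 and 12.1 came without replicate 1, and the other ends without replicate 2.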
